A study of Homo sapiens with 4 samples.

Results

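Heat shock proteins and their cofactors are described here in 2 human mantle cell lymphoma lines, Mino and Z138, after an inducible hairpin against the B cell receptor kinase BTK. The 38 genes were taken by symbol from the 25277 symbols of the expression table, by family. These are the heat shock factors HSF1 and HSF2, the HSP70, HSP110, HSP90, HSP40 and small heat shock proteins, and the collagen chaperone SERPINH1. The others are cochaperones of HSP90 and HSP70, mitochondrial chaperones and the 8 subunits of the CCT chaperonin. All 38 were found. The families were chosen by function with the hairpin ratios of these data known, among them a low ratio of DNAJB1 in Mino, so the hairpin ratios below are a description and support no claim about the list.

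Each line stably carried a doxycycline-switched vector, and all 4 cultures received doxycycline for 48 hours. The groups are Mino shBTK and Z138 shBTK, which expressed a small hairpin targeting BTK, and Mino sc4 control and Z138 sc4 control, which held a control vector whose insert the labels do not describe. There was 1 library per line and vector, so no group had a replicate, and a hairpin effect cannot be told apart from a difference between 2 cultures of a line. Values are FPKM, fragment counts corrected for transcript length and library size. The read depth behind them is unknown.

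BTK, the target, was at 9.84 FPKM in Mino shBTK against 37.0 in Mino control, and at 12.4 in Z138 shBTK against 51.0 in Z138 control. Summed FPKM was 669013 to 740192 per library. The B cell markers MS4A1, CD79A, CD79B, PAX5 and CD22 were at 1 FPKM or more in every library. Of the lymphoma markers, SOX11 was at 19.8 to 23.7 FPKM in every library, and CCND1 was at 601 and 591 FPKM in Z138 shBTK and control but at 2.62 and 3.18 in Mino shBTK and control. All 4 myeloid markers stayed under 1 FPKM, and both erythroid markers were listed at 0. T cell markers summed to 0.344 and 0.161 FPKM in Mino shBTK and control and to 4.65 and 4.53 in Z138 shBTK and control. The epithelial pair EPCAM and KRT18 summed to 13.7 and 13.4 FPKM in Mino shBTK and control, and the fibroblast pair, of which COL1A1 made up nearly the whole, to 3.62 and 4.59.

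Chaperones help proteins fold and keep them from clumping. HSP70 binds exposed stretches of unfolded protein in cycles that HSP40 proteins start and HSP110 proteins reset, HSP90 finishes the folding of kinases and receptors with its cochaperones, and the CCT ring folds actin and tubulin. When unfolded protein builds up, the factor HSF1 binds heat shock elements in DNA and switches on the inducible part of this network. BTK is itself known as an HSP90 client.

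In Mino the heat-inducible chaperones were lower in the hairpin library, and in Z138 they were not lower as a set. This set holds 18 members whose RNA heat is known to raise, named from textbook knowledge with the ratios known: HSPA6, HSPA8, HSPH1, HSPA4L, HSP90AA1, HSP90AB1, HSPB1, HSPD1, HSPE1, SERPINH1, DNAJB1, DNAJA1, BAG3, STIP1, AHSA1, CHORDC1, FKBP4 and CACYBP. Several of them, HSPA8 and HSP90AB1 above all, are also abundant without heat. Of the 18, 17 averaged 1 FPKM or more, the minimum for the comparisons. All 17 had a log2 ratio of shBTK to control below 0 in Mino, where 51.9% of all 11484 tested symbols did, and 7 of 17 in Z138, where 43.7% of all tested symbols did; with GC and length trends removed it was 4 of 17 in Z138. Their median log2 ratio, on the log2(FPKM + 1) scale used for every ratio here, was −0.46 in Mino and 0.08 in Z138, beside medians of −0.01 and 0.03 over all tested symbols. For the other 20 members the medians were −0.05 (Mino) and 0.17 (Z138). Of the 37 tested members, 22 were below 0 in Mino and above 0 in Z138, beside 32.1% of all tested symbols.

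At 1.5-fold, 5 of the 37 tested members were lower in Mino shBTK than in Mino control and 0 were higher, beside 1.24% and 0.923% of all tested symbols. These 5 were DNAJB1, HSPA6, HSPA8, HSPH1 and SERPINH1. Just outside the threshold lay HSP90AA1, at −0.57, and DNAJB4, at −0.56. With a pseudocount of 0.1 or 0.5, or with GC and length trends removed, DNAJB4 passed as well and the count was 6. At a smaller threshold, the higher value 25% above the lower, 14 members were lower and 1, HSPA13, higher in Mino shBTK, beside 5.75% and 4.44%. On the log2(FPKM + 1) scale DNAJB1 alone was 2-fold lower, beside 0.305%; HSPA6, at 49.6% of control in FPKM, came just short of it because of the added 1. In Z138 0 of 37 were lower and 0 higher at 1.5-fold, beside 0.819% and 0.94% of all tested symbols, and at the smaller threshold 0 were lower and 2, CACYBP and DNAJA2, higher, beside 4.17% and 5.32%. With 1 library per group these are differences in size between libraries, with no test.

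**Figure D1:**
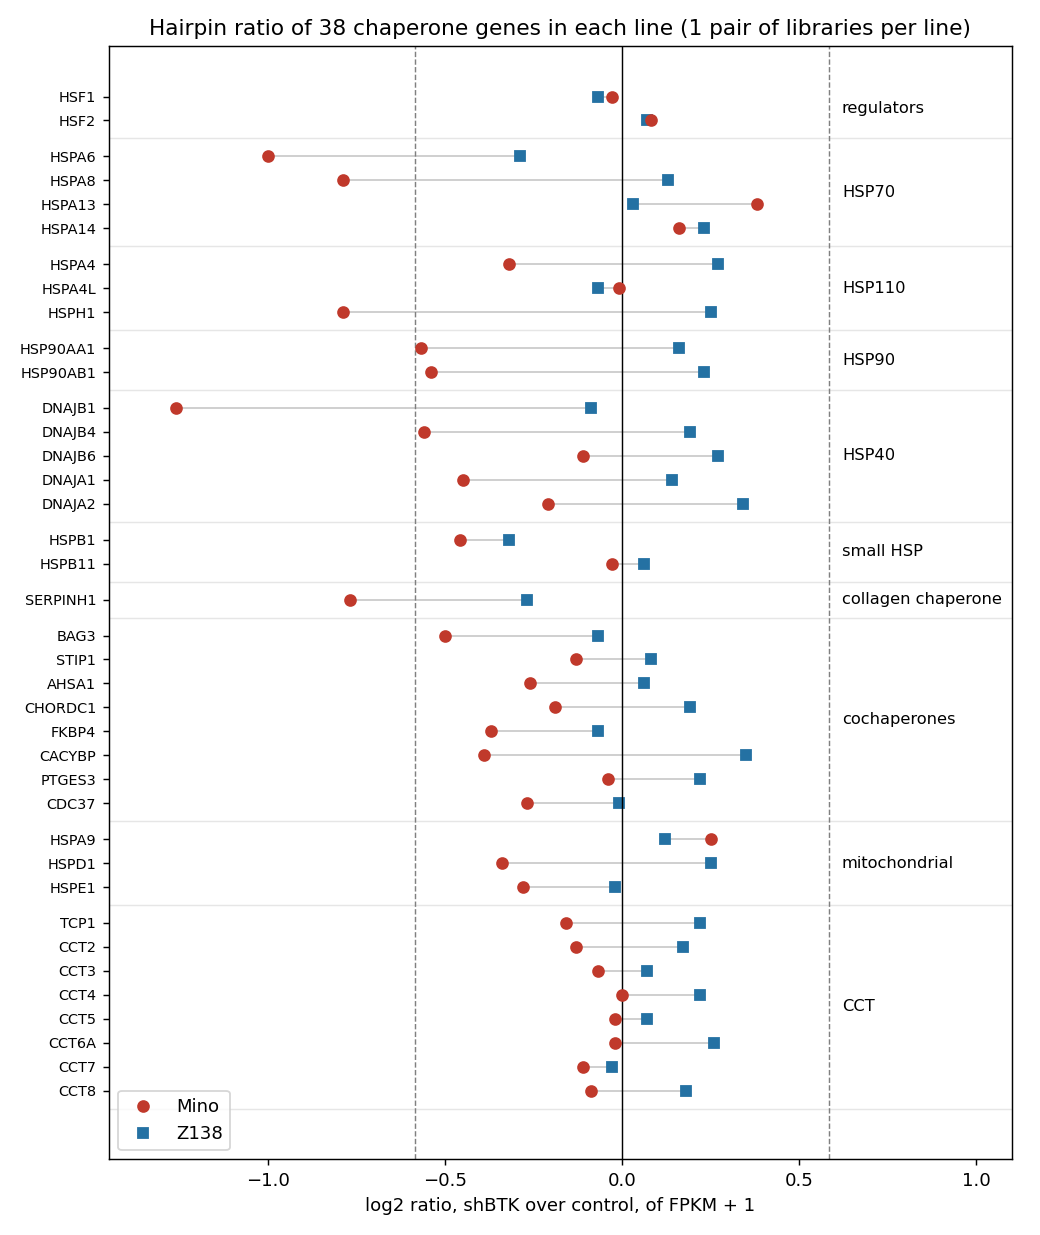
Log2 ratio of FPKM + 1, shBTK over control, for each of the 38 genes by class, in Mino (circles) and Z138 (squares), with 1 pair of libraries per line; the dashed lines mark 1.5-fold. In Mino 5 genes lie left of the lower line and the CCT subunits lie within −0.16 and 0.00, while in Z138 every gene lies between −0.32 and 0.35.

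The regulators differed little. HSF1, the main heat shock factor, was at 42.9 FPKM in Mino shBTK against 43.8 in Mino control, and at 57.4 in Z138 shBTK against 60.3 in Z138 control. HSF2, a related factor with developmental roles, was at 15.6 against 14.7 FPKM in Mino shBTK and control, and at 8.05 against 7.60 in Z138 shBTK and control. The RNA level of HSF1 was thus 98.0% and 95.2% of control in the hairpin libraries of Mino and Z138, and the activity of the protein was not measured.

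In Mino the 4 HSP70 genes lay on both sides of 0. HSPA6, a strictly stress-induced HSP70, was at 49.6 FPKM in Mino shBTK against 99.99 in Mino control, or 49.6% of control. It was nearly silent in Z138, at 0.219 FPKM in shBTK and 0.490 in control, and both are too low to read a ratio from. HSPA8, the abundant HSP70 of all cells, was at 249 FPKM in Mino shBTK against 432 in Mino control (log2 ratio −0.79) and at 178 FPKM in Z138 shBTK against 163 in Z138 control (0.13). The pair outside the heat-inducible set was above 0 in both lines, as HSPA8 was in Z138. The log2 ratios of HSPA13, a microsomal HSP70, were 0.38 in Mino and 0.03 in Z138, and those of HSPA14, a ribosome-associated one, were 0.16 and 0.23. With the GC and length trends removed the Z138 ratios were −0.13 for HSPA13 and 0.18 for HSPA14, so the side of HSPA13 in Z138 is not settled.

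HSPA7, a near copy beside HSPA6, was listed at 0.892 FPKM in Mino shBTK and 1.98 in Mino control; reads shared between the copies could have been assigned to either. The main inducible HSP70 genes, HSPA1A and HSPA1B, cannot be read from this table. HSPA1A was listed at 0 in all 4 libraries, and HSPA1B at 0.022 FPKM in Mino shBTK and at 0 in the other 3. The chaperone cofactors BAG6 and PFDN6 and the tubulin gene TUBB, which most cells use and which lie on chromosome 6 like HSPA1A and HSPA1B, were also listed at 0 in all 4 libraries. This does not hold for the whole chromosome: the members HSP90AB1, TCP1 and HSF2 also lie on it and were above 0 in all 4 libraries.

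Among HSP40 genes, whose proteins hand clients to HSP70, DNAJB1 stood out. It was at 81.5 FPKM in Mino shBTK against 197 in Mino control, which is 41.3% of control and a log2 ratio of −1.26. That was the lowest ratio of any member in either line and the 20th lowest of the 11484 tested symbols in Mino. In Z138 DNAJB1 was at 27.3 FPKM in shBTK against 29.04 in control, a log2 ratio of −0.09, so both Z138 libraries lay below both Mino libraries. With the GC and length trends removed the Z138 ratio of DNAJB1 was 0.00. DNAJA1, a farnesylated HSP40, was at 79.7 FPKM against 109 in Mino shBTK and control (−0.45), and at 71.7 against 65.2 in Z138 shBTK and control (0.14). DNAJB4, a close relative of DNAJB1, was at 6.56 against 10.1 FPKM in Mino shBTK and control, and at 2.41 against 1.98 in Z138 shBTK and control. DNAJB6 and DNAJA2, which are less heat-responsive, were at log2 ratios of −0.11 and −0.21 in Mino, and in Z138 at 0.27 and 0.34.

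HSP110 genes encode the exchange factors of HSP70. HSPH1 was at 37.9 FPKM in Mino shBTK against 66.3 in Mino control (log2 ratio −0.79) and at 16.3 in Z138 shBTK against 13.5 in Z138 control (0.25). HSPA4, the constitutive HSP110, was at 41.4 against 51.9 FPKM in Mino shBTK and control (−0.32), and at 38.3 against 31.6 in Z138 shBTK and control (0.27). HSPA4L had 0.352 and 0.363 FPKM in Mino shBTK and control and 0.858 and 0.949 in Z138 shBTK and control, and was the 1 member under the minimum.

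Both cytosolic HSP90 genes lay on the same side as HSPA8 in each line. The inducible HSP90AA1 was at 405 FPKM in Mino shBTK against 603 in Mino control (log2 ratio −0.57) and at 156 in Z138 shBTK against 139 in Z138 control (0.16). The more constitutive HSP90AB1 was at 524 FPKM in Mino shBTK against 764 in Mino control (−0.54) and at 681 in Z138 shBTK against 580 in Z138 control (0.23). The make-up of the HSP90 message therefore hardly differed between hairpin and control: HSP90AA1 gave 43.6% and 44.1% of the summed HSP90 FPKM in Mino shBTK and control, and 18.6% and 19.4% in Z138 shBTK and control.

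The small heat shock protein HSPB1 and the collagen chaperone SERPINH1 were lower in the hairpin library of both lines. HSPB1, which holds unfolding proteins in a soluble state, was at 813 FPKM in Mino shBTK against 1121 in Mino control (log2 ratio −0.46) and at 339 in Z138 shBTK against 423 in Z138 control (−0.32). SERPINH1, an endoplasmic reticulum protein whose gene is nonetheless driven by heat shock, was at 59.0 FPKM in Mino shBTK against 101 in Mino control (−0.77) and at 20.4 in Z138 shBTK against 24.8 in Z138 control (−0.27). In Z138 the log2 ratio of all genes went down with GC content (Spearman rho −0.57 across 10477 symbols above 0 in every library, 0.11 in Mino), and both transcripts are GC-rich, at 64.3% and 56.5%. With the GC and length trends removed the Z138 ratios were −0.15 for HSPB1 and −0.16 for SERPINH1. HSPB11, a ciliary transport protein that carries the family name, had log2 ratios of −0.03 and 0.06.

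**Figure D2:**
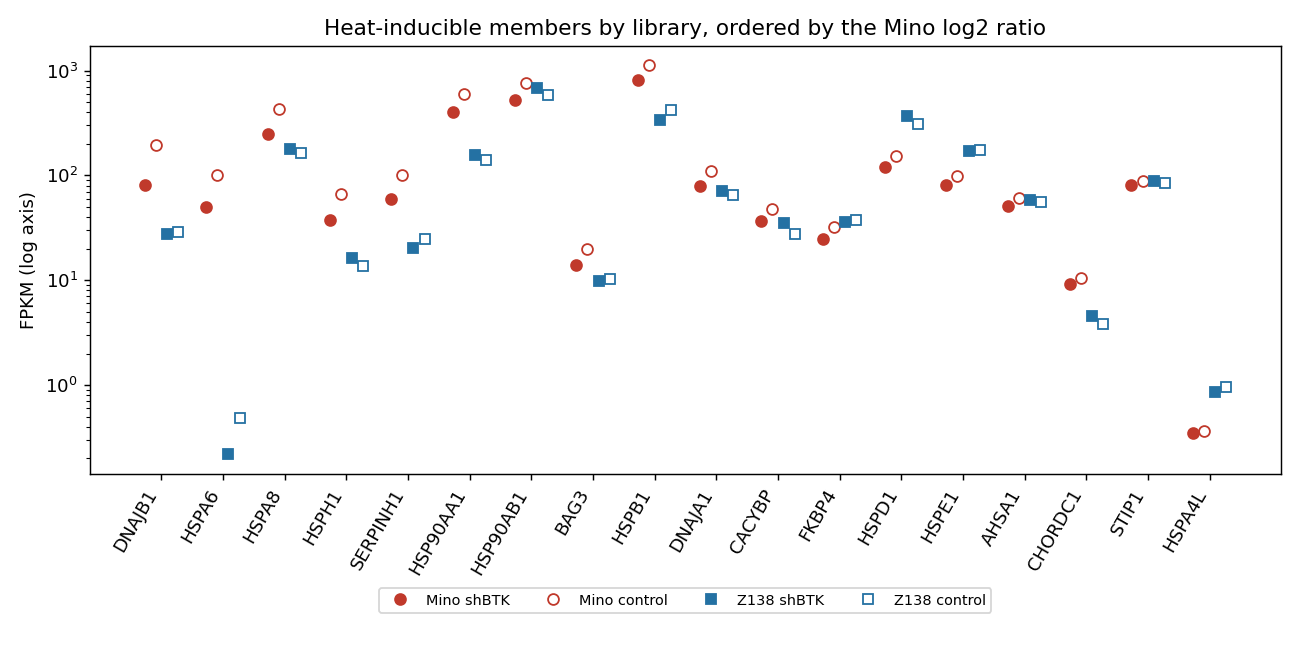
FPKM (log axis) of the 18 heat-inducible members in the 4 libraries, ordered by the Mino log2 ratio; filled symbols are shBTK and open symbols control, circles are Mino and squares Z138. The Mino control circle is the highest point for 14 of the 17 tested genes.

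The cochaperones, of HSP90 except for BAG3, had smaller ratios. All 8 were below 0 in Mino, with a median of −0.27, where 51.9% of all tested symbols were below 0. BAG3, which links HSP70 to autophagy, was at 13.9 FPKM in Mino shBTK against 20.1 in Mino control (log2 ratio −0.50), and at 9.76 against 10.3 in Z138 shBTK and control (−0.07). CACYBP, which binds calcyclin and the ubiquitin ligase Siah, was at 36.8 against 48.3 FPKM in Mino shBTK and control (−0.39) and at 35.2 against 27.4 in Z138 shBTK and control (0.35). FKBP4, an immunophilin of steroid receptor complexes, stood at log2 ratios of −0.37 (Mino) and −0.07 (Z138). CDC37, which loads kinases onto HSP90, had −0.27 and −0.01. AHSA1, which speeds the ATPase of HSP90, had −0.26 and 0.06, and CHORDC1, a zinc-binding partner of HSP90, had −0.19 and 0.19. STIP1, the bridge between HSP70 and HSP90, had −0.13 and 0.08, and PTGES3, the p23 protein, had −0.04 and 0.22. The ratios of the cochaperones thus overlapped those of the HSP40 genes at one end and of CCT at the other.

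Mitochondrial chaperones lay on both sides of 0. HSPD1 and HSPE1, the HSP60 and HSP10 of the matrix, share a promoter region between their genes. HSPD1 was at 122 FPKM in Mino shBTK against 154 in Mino control (log2 ratio −0.34) and at 366 in Z138 shBTK against 308 in Z138 control (0.25). HSPE1 was at 81.1 against 98.8 FPKM in Mino shBTK and control (−0.28), and at 171 against 173 in Z138 shBTK and control (−0.02). The ratio of HSPD1 to HSPE1 was 1.498 and 1.55 in Mino shBTK and control, and 2.14 and 1.78 in Z138 shBTK and control. HSPA9, the matrix HSP70, which is not counted as heat-inducible, was higher in both hairpin libraries, at 95.0 against 79.5 FPKM in Mino shBTK and control (0.25) and at 263 against 242 in Z138 shBTK and control (0.12).

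The CCT subunits differed little between hairpin and control in Mino. In Mino their log2 ratios ran from −0.16 for TCP1 to 0.00 for CCT4, with a median of −0.08 and a standard deviation over the 8 subunits of 0.06, and 7 were below 0. In Z138 they ran from −0.03 for CCT7 to 0.26 for CCT6A, with a median of 0.17 and a standard deviation of 0.10, and 7 of 8 were above 0, where 55.3% of all tested symbols were. These transcripts have a median GC content of 44.6% against 48.7% for all tested symbols. With the GC and length trends removed the Z138 median was 0.14 and all 8 were above 0.

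Although the ring takes 1 copy of each subunit, the RNA levels were unequal. CCT5 was the lowest subunit in every library, at 47.0 and 47.9 FPKM in Mino shBTK and control and at 40.4 and 38.4 in Z138 shBTK and control. The highest was CCT8 in Mino, at 160 and 170 FPKM in shBTK and control, and CCT3 in Z138, at 255 and 243 FPKM. The highest subunit was 3.40 and 3.56 times the lowest in Mino shBTK and control, and 6.29 and 6.32 times in Z138 shBTK and control.

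Heat shock elements are inverted repeats of GAA spaced by a pair of bases. RefSeq promoter windows (GRCh38.p14, 250 bases before to 50 after a transcript start) were matched for 33 of the 38 members, in 49 windows, and searched for 3 such units in a row: GAA, 2 bases, TTC, 2 bases, GAA, or the same beginning and ending with TTC. The 2 forms are each other's reverse complement, so both strands are covered. Either form was found in 9 of the 33 members, 8 of 17 heat-inducible and 1 of 16 others, and in 0.608% of the 27305 symbols of that table (0.49% of its 35116 windows). These 17 are not the 17 compared above: they hold HSPA4L but not FKBP4, for which no window was matched. Windows were also not matched for HSF1, HSPA14, HSPB11 and CCT6A. The 9 were HSPA6, HSPA8, HSP90AA1, HSP90AB1, SERPINH1, HSPD1, DNAJA1, CHORDC1 and DNAJB6. DNAJB1 held the shorter GAANNTTC, which is part of the longer motifs, reads the same on both strands and occurs in 6.77% of all windows. The stretches below show the longest run nearest the start for 7 of the 9, and for DNAJB1 1 of its 3 matches, so that the elements can be set beside the ratios above; capitals mark the matched run.
DNAJB1, chr19:14518426-14518455, minus strand: ggcgggctctgGAAGCTTCcgccggacggg
HSPA6, chr1:161524442-161524501, plus strand: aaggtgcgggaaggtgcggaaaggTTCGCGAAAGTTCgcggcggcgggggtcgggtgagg
HSPA8, chr11:123062171-123062200, minus strand: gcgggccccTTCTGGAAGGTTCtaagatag
SERPINH1, chr11:75562168-75562197, plus strand: tttccaactTTCCAGAAGTTTCtcgggacg
HSP90AA1, chr14:102087112-102087141, minus strand: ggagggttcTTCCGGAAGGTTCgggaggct
HSP90AB1, chr6:44247822-44247851, plus strand: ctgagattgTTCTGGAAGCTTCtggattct
HSPD1, chr2:197500062-197500090, minus strand: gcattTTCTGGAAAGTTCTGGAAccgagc
CHORDC1, chr11:90223084-90223113, minus strand: accgGAAAATTCGCGAAGGTTCCTGAAacg

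The longest run, 23 bases, belonged to CHORDC1, whose log2 ratio in Mino was −0.19, while DNAJB1, with the lowest ratio, had the 8-base match only. Of the heat-inducible members searched, HSPH1, BAG3, AHSA1, CACYBP and HSPE1 had none of these motifs in their windows, nor TTCNNGAA. That says nothing about elements elsewhere. A match is a description of the sequence, and binding of HSF1 was not measured.

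**Figure D3:**
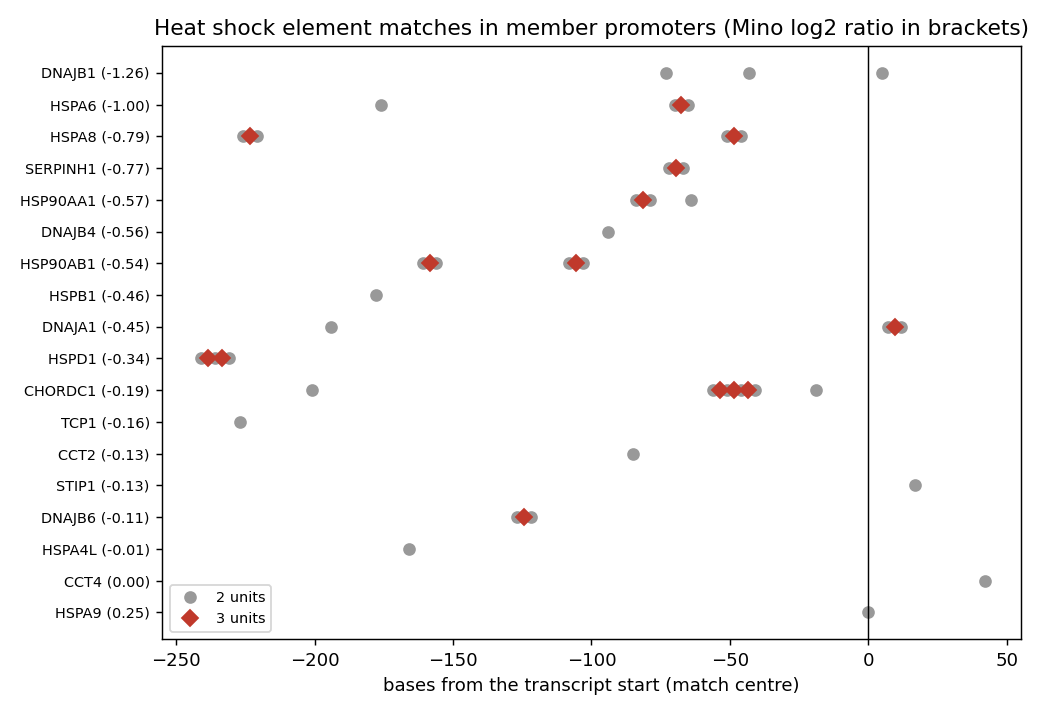
Position of heat shock element matches, in bases from the transcript start (0), in member promoter windows. Circles are the 2-unit motifs GAANNTTC or TTCNNGAA and diamonds are 3-unit matches. Either 2-unit motif was found in 18 of the 33 members matched, and in 16.2% of all symbols. Only the 2-unit match was held by DNAJB1, HSPA4L, HSPB1 and STIP1 of the heat-inducible set. The same held for TCP1, CCT2, CCT4, HSPA9 and DNAJB4 outside it. Members are ordered by their Mino log2 ratio, in brackets, and the 3-unit matches lie in 9 members, from HSPA6 down to DNAJB6 at −0.11.

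The linear model over both lines (limma on log2(FPKM + 1), line and hairpin as terms) called 0 of 37 members for the hairpin, where 0.122% of all tested symbols were called. At an unadjusted p under 0.05 there were 4 (DNAJB1, HSPA6, HSPB1 and SERPINH1), beside 2.79% of all tested symbols. Averaged over the lines, the log2 ratio was −0.67 for DNAJB1 (SE 0.24, limma adjusted p = 1.00), −0.52 for SERPINH1 (SE 0.15) and −0.39 for HSPB1 (SE 0.12). DNAJB1 was below 0 in both lines, but at 0.00 in Z138 with the GC and length trends removed. A gene's own error in this model is the difference between the lines, with 1 residual degree of freedom. The limma fit combines it with the error of other genes of similar level, which counts as 6.88 degrees of freedom. Each SE therefore rests mostly on other genes, and genes that differ in 1 line carry a larger error.

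Among the 84 other cytosolic and mitochondrial chaperones and cofactors examined beside the members, 63 had a mean of at least 1 FPKM. Of these, 0 were 1.5-fold lower or higher in Mino, beside 1.24% and 0.923% of all tested symbols. In Mino 37 of 63 were below 0, beside 51.9%, with a median log2 ratio of −0.04. In Z138 0 were lower or higher at 1.5-fold either, beside 0.819% and 0.94%, and the median was 0.09. The counts of 0 are near the shares over all tested symbols. Among those averaging 5 FPKM or more, the lowest Mino ratios were those of HSF4, a lens heat shock factor (−0.42), and DNAJC7, an HSP90 and HSP70 adaptor (−0.34). The highest was TTC4, an HSP90 cochaperone (0.39), followed by the mitochondrial HSP40 DNAJA3 (0.24). In Z138 the ratios ran from −0.36 for DNAJB2 to 0.57 for FKBP5, a glucocorticoid-induced HSP90 partner that was at 37.8 FPKM in shBTK and 25.1 in control. HSPA5, the HSP70 of the endoplasmic reticulum, was at 131 FPKM in Mino shBTK against 91.5 in Mino control, the opposite side to HSPA8 and HSPA6. In Z138 HSPA5 was at 285 FPKM in shBTK against 256.6 in control, the same side as HSPA8 in that line.

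The lines also differed in the levels of their chaperones. Here the hairpin and control libraries of a line stand in as its replicates, so the error holds no spread between like cultures. In the limma comparison of Z138 with Mino, 13 of 37 members were called higher and 15 lower in Z138, beside 28.7% and 38.8% of all tested symbols, so the counts themselves are near those of all genes. Some classes, as chosen here, lay mostly on 1 side, while the HSP70 genes and the cochaperones were split. All 3 mitochondrial chaperones were called higher in Z138: HSPA9 by a log2 difference of 1.53 (SE 0.12, limma adjusted p = 1.21e-05), HSPD1 by 1.29 (SE 0.15) and HSPE1 by 0.93 (SE 0.12). Of the CCT subunits, 5 were called higher in Z138 and 1, CCT4, lower (log2 difference −0.49, SE 0.12, adjusted p = 0.00752 in limma). CCT3 (1.31, SE 0.12) and CCT2 (1.26, SE 0.13) differed most among the subunits.

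All 5 HSP40 genes among the members were called lower in Z138, as were HSPA6, HSPA8, HSPH1, HSP90AA1, HSPB1, SERPINH1, BAG3 and CHORDC1. Other genes of the HSP70 and cochaperone classes were called higher in Z138. These were HSPA13 (log2 difference 1.41, SE 0.14), PTGES3 (0.59, SE 0.12), FKBP4 (0.37, SE 0.13) and CDC37 (0.37, SE 0.13). HSP40 genes outside the members lay on both sides. DNAJB12 and DNAJC12 were higher in Z138 (log2 differences 1.43 and 1.45), and DNAJB2 and DNAJB5 lower (−1.30 and −2.29). HSPA6 had the widest gap, a log2 difference of −5.73 (SE 0.18, adjusted p = 2.03e-07 in limma), with 0.355 FPKM on average in Z138 and 74.8 in Mino. DNAJB1 differed by −2.13 (SE 0.24, adjusted p = 0.000106) and HSP90AA1 by −1.74 (SE 0.17, adjusted p = 5.22e-05). HSP90AB1 differed by −0.01 (SE 0.18, adjusted p = 0.968), and STIP1 and AHSA1 by 0.01 and 0.02 (SE 0.12 and 0.13). HSF1 was slightly higher in Z138 (0.43, SE 0.12, adjusted p = 0.0124) and HSF2 lower (−0.87, SE 0.13, adjusted p = 0.000546).

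**Figure D4:**
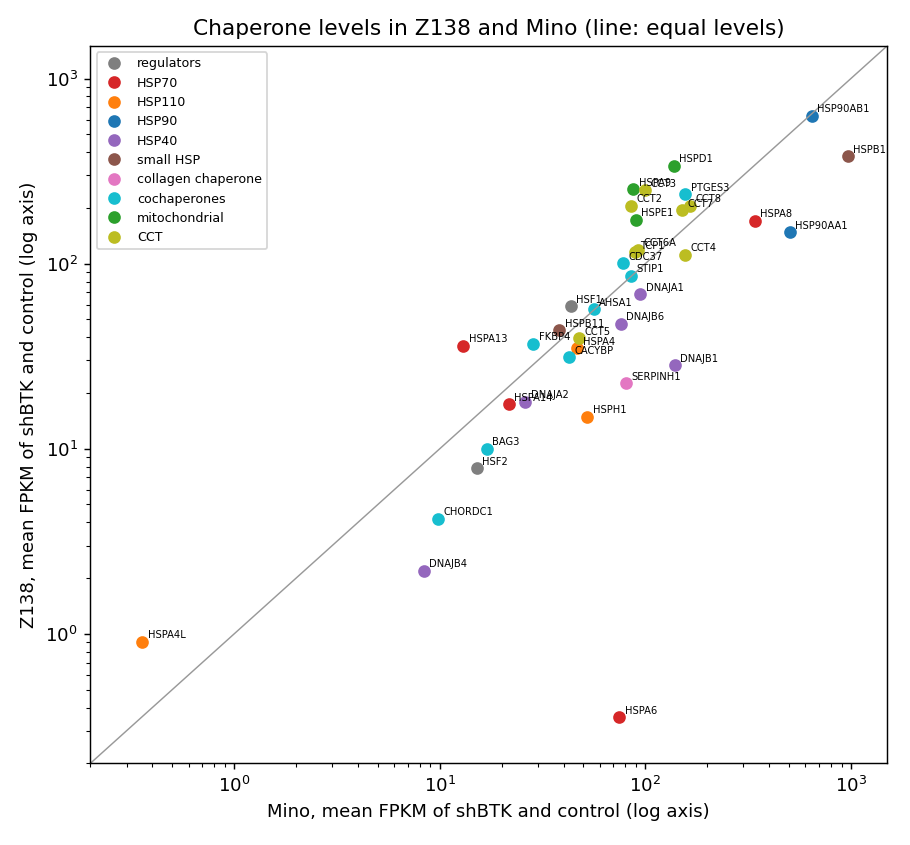
Mean FPKM of the shBTK and control libraries of Z138 (y, log axis) against that of Mino (x, log axis) for the 38 genes, coloured by class; points on the diagonal have equal levels. The mitochondrial chaperones of the list lie above the line, its 5 HSP40 genes below it, and HSPA6 lies far below it at 0.355 FPKM in Z138 and 74.8 in Mino.

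The Mino control library held the highest level of most heat-inducible members. It was above the other 3 libraries for 14 of the 17, where 31.3% of all tested symbols were highest in that library. All 17 were already lower in Mino shBTK than in Mino control, as 51.9% of all tested symbols were. The 14 thus partly restate the low Mino ratios, and the 31.3% is not a like background for them. The Mino hairpin library lay below the Mino control and above both Z138 libraries for 11 of the 17. How many of all tested symbols had this order was not counted, so the 11 cannot be set against a background. Since Mino control is 1 culture, its part in the low Mino ratios was not tested.

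As a share of all FPKM, the 38 genes made up 0.625% in Mino shBTK against 0.827% in Mino control, and 0.625% in Z138 shBTK against 0.559% in Z138 control. The heat-inducible 18 summed to 2719 FPKM in Mino shBTK against 4009 in Mino control, and to 2259 in Z138 shBTK against 2139 in Z138 control. The other 20 members summed to 1460 FPKM against 1529 in Mino shBTK and control, and to 2191 against 1996 in Z138 shBTK and control. HSPB1 was the most abundant member in both Mino libraries and HSP90AB1 in both Z138 libraries. Since several of these genes have processed copies in the genome (18 of 38 have at least 1 named pseudogene in GENCODE 29, with 26 for HSPE1 and 17 each for HSPA8 and HSPD1), levels depend on how shared reads were assigned.

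**Figure D5:**
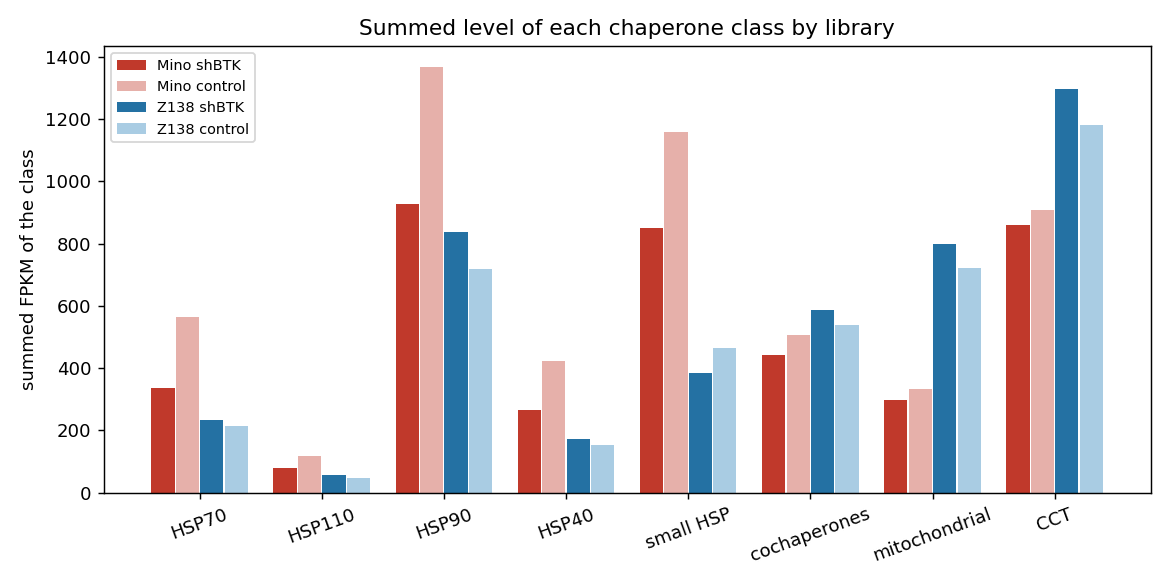
Summed FPKM of each class in Mino shBTK, Mino control, Z138 shBTK and Z138 control (bars, 1 library each; regulators and the single collagen chaperone are left out). The HSP90 bar is 928 in Mino shBTK and 1367 in Mino control, whereas the CCT bars are 862 and 907.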

How the data were processed

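RNA from 4 cultures was sequenced, 1 library per line and vector. The authors deposited 1 table of FPKM values for 25277 symbols, per the file headers; TopHat and hg19 are named in the submitters' processing notes, the program, annotation and filters of the FPKM step being not given in the sources used here. Read depth is unknown, so no counting interval is given. Each column was matched to its library by line and vector.

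Values were analysed as log2(FPKM + 1), which understates the change of low genes. The 11484 symbols averaging 1 FPKM or more entered limma 3.58.1 in R 4.3.3 with line and hairpin as terms and a mean-variance trend; p-values were adjusted by Benjamini-Hochberg over all 11484 and called under 0.05. For the hairpin only the 2 lines replicate each other, and for Z138 against Mino the hairpin and control libraries of a line do, so p-values do not measure the spread between cultures. The fit was also run on simulated data, whose changes were large and alike in both lines, so that run does not cover differences in 1 line alone. Within a line there is no test, and called means 1.5-fold. The members, the heat-inducible set and the 84 other chaperones were chosen with earlier results of these data known. All 38 members could be named; of the others, the 5 highest and 5 lowest ratios per line at a mean of at least 5 FPKM, and BTK. HSPA7, HSPA5, HSPA1A, HSPA1B, BAG6, PFDN6, TUBB, DNAJB5, DNAJB12 and DNAJC12 were named outside this rule, after their values were seen. GC content and length came from the longest GENCODE 29 transcript of each symbol (93.9% of tested symbols, all 38 members). Promoter sequences are from RefSeq, GRCh38.p14, matched by symbol; the table of expression values was made on another build, so no coordinates were joined.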

Additional observations from a re-analysis of the deposited data

Results flagged for a closer look

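Differences between the lines drew attention for 8 members, whose log2 ratio was below 0 in Mino and above 0 in Z138 with at least 1.5-fold between the 2. The Mino minus Z138 difference of the log2 ratio was −1.05 for HSPH1, −0.92 for HSPA8, −0.77 for HSP90AB1, −0.75 for DNAJB4, −0.74 for HSP90AA1 and −0.74 for CACYBP. It was −0.59 for HSPA4 and −0.59 for DNAJA1. With the GC and length trends removed, HSPA4 and DNAJA1 fell short of 1.5-fold between the lines, and the other flagged members did not. Their corrected log2 ratios in Mino and Z138 were −0.29 and 0.18 for HSPA4 and −0.47 and 0.05 for DNAJA1. Without this correction, 314 (2.73%) of all tested symbols met the rule for flagging. For none of these symbols was the difference between the lines tested, since a line had a single pair of libraries.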

How the results depend on the processing

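The 5 members that were 1.5-fold lower in Mino were 6, with DNAJB4, at pseudocounts of 0.1 and 0.5 and with the GC and length correction; they became 14 at a threshold of 25% above the lower value and 1 at 2-fold; at 25%, 1 was higher in Mino and 2 in Z138. With a pseudocount of 0.1, 1 member (HSPA6) was 1.5-fold lower in Z138. No hairpin call among the members appeared under any alternative to the limma fit. Over all symbols the hairpin test called 14, against 2 without a filter on low values, 9 at a mean of at least 5 FPKM, 28 without symbols listed at 0, 25 with columns rescaled by median ratio, 5 with the GC and length correction and 0 without the line term. The GC and length correction left 0 CCT subunits above 0 in Mino, against 1, and 4 heat-inducible members below 0 in Z138, against 7. It moved Z138 class medians to 0.15 for HSP110, 0.05 for HSP40 and −0.02 for small heat shock proteins. Without the filter the Mino HSP110 median was −0.32, because HSPA4L entered. Of 592 values of single members under alternatives, 13 moved by over 0.1 on the log2 scale, 11 of them under the GC and length correction, and 0 of the 1.5-fold differences changed sign. The limma count of members that differed between the lines was 28 and stayed within 24 and 31. The reported limma fit is paired by line; the labels give no replicate numbers to pair by. Leaving out a library left no residual degree of freedom, so those fits were not run.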
